A study of Mus musculus with 16 samples.

Results

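The 10 genes described here are used as macrophage markers, or for the complement protein C1q that macrophages make, and were read from bulk RNA-seq of epidermal cells of aged mice. They were Adgre1, Csf1r, Cd68, C1qa, C1qb, C1qc, Lyz2, Mpeg1, Mrc1 and Tyrobp, chosen by name among the 27179 gene identifiers of the count table, and all 10 were found and tested. The anti-IL-17A/F group was 4 C57bl/6J mice, treated from 73 weeks of age with blocking antibodies against IL-17A and IL-17F, injected into the peritoneum 3 times a week for 12 weeks. The control IgG group was 4 mice of the same strain and age that were given a control immunoglobulin. Both groups were aged, and there was no young or untreated group among these samples. The cells were a suspension of epidermis that dispase had released from torso skin, and the methods of the study name no sorting step for these libraries, so cells other than keratinocytes stayed in. Each library is listed in 2 batches under the same library number and barcode, called its runs here. The labels do not say what the batches were, and both runs of a mouse were summed. A level is given as CPM, the usual depth-corrected unit, with library totals adjusted by the TMM method.

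Macrophages are tissue phagocytes that clear dead cells and debris and present antigen. In skin most of them live in the dermis, whereas the resident phagocyte of the epidermis is the Langerhans cell, which shares the macrophage growth factor receptor CSF1R and is maintained by its ligand IL-34 from keratinocytes. C1q is the recognition part of the first complement complex. It is built from 3 kinds of chain, encoded by C1qa, C1qb and C1qc, and binds immune complexes and dying cells. With bulk samples, fewer cells of a type and less RNA per cell cannot be told apart.

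All 10 genes had a lower mean under anti-IL-17A/F than under control IgG, by log2 fold changes of -0.25 to -0.72, and none passed the test. The 3 C1q genes had the lowest log2 fold changes, followed by Csf1r, the receptor for CSF1 and IL-34, and Mpeg1, a pore-forming protein of phagosomes. The values of the groups overlapped for all 10 genes, and control mice 3 and 4 held the 2 highest values of 5 of them. Csf1r, Adgre1 and Tyrobp moved together from mouse to mouse, and closely with the Langerhans cell gene Cd207. The correlations of C1qb, Mrc1 and Lyz2 with Cd207 were near 0 over all mice and below 0 without control mice 3 and 4. For C1qc they were 0.36 and -0.50. C1qb, C1qc and Mrc1 had few counts in each mouse, so their correlations are uncertain.

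The C1q genes lie side by side on chromosome 4 of GRCm38, all on the minus strand, with C1qb at 136880129 to 136886187, C1qc at 136889804 to 136893065 and C1qa at 136895917 to 136898803. Bases before the start site were taken from RefSeq (GRCm38.p6), which held 6 of the 10 genes. C1qb, C1qc and Mrc1, the gene of the mannose receptor, are shown because these 3 rare transcripts had pairwise correlations of 0.70 to 0.78 over the mice, described further on. With 2 mice left out these were 0.62 for C1qb with C1qc, 0.43 for C1qb with Mrc1 and 0.74 for C1qc with Mrc1. All rest on few counts, and shared regulation was not tested. Capitals mark GAGGAA, the core of sites for PU.1, the transcription factor that defines the myeloid lineage, on either strand (TTCCTC on the strand shown where it lies on the other). Bases that GENCODE annotates as transcribed were left out, so C1qb is shown at chr4:136886201-136886450 (minus strand), C1qc at chr4:136893066-136893164 (minus strand) and Mrc1 at chr2:14229164-14229391 (plus strand).
C1qb: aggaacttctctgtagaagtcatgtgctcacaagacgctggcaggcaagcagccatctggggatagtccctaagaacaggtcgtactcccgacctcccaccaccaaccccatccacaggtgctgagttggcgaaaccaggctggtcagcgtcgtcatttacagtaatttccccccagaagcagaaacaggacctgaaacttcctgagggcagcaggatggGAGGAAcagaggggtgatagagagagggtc
C1qc: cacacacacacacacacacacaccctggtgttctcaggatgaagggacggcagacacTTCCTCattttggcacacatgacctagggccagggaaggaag
Mrc1: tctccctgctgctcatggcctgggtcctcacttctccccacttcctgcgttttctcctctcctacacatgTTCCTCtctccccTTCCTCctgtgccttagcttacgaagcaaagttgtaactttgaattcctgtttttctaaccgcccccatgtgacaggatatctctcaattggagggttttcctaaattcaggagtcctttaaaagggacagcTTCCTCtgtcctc
The motif occurred in the 250 bases before the start of C1qb, C1qc, Mrc1 and Cd68, but not of Lyz2 or Mpeg1. Of 32851 such windows in the table, 23.3% held it. Mrc1 had 3 matches, beginning at positions -180, -167 and -35 from the RefSeq start. The other 3 genes had 1 each, C1qb at -30, C1qc at -193 and Cd68 at -225. For C1qc only 99 and for Mrc1 228 of the 250 bases are shown, so positions there also count bases left out above. Of 2 further motifs searched on both strands, the C/EBP pattern TTGCNNAA (9.56% of all windows) occurred in the Cd68 window and the TATA box TATAAA (12.4%) in none of the 6. Such matches are letters in a window, not sites shown to be bound.

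The libraries held 42816157 to 53721153 counts per mouse. As a check of the labelled cells, keratinocyte markers, 10 genes that include Krt14 and Krt10, had sums of 40400 to 43200 CPM under anti-IL-17A/F and 39600 to 43400 CPM under control IgG. The 10 macrophage and C1q genes together made up 23.2, 16.3, 20.8 and 16.7 CPM under anti-IL-17A/F (mice 1 to 4), against 14.6, 16.7, 38.9 and 34.6 CPM under control IgG (mice 1 to 4). Control mice 3 and 4 thus stood above all other mice, and control mouse 1 below them all.

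How far these genes stand for macrophages was checked with 20 other genes of resident skin macrophages. Of these, 13 were high enough to test, but the most abundant, such as the lipid carrier Apoe (5050 ± 314 CPM under anti-IL-17A/F, 5760 ± 1290 CPM under control IgG, SD, n = 4 each), are also made by other cells. Among genes closer to the lineage, Cd163, a scavenger receptor for hemoglobin, averaged 2.18 CPM under anti-IL-17A/F and 2.31 CPM under control IgG, and the folate receptor gene Folr2 averaged 0.385 CPM under anti-IL-17A/F and 0.565 CPM under control IgG. Mgl2 averaged 0.265 CPM under anti-IL-17A/F and 0.344 CPM under control IgG, and F13a1 0.221 and 0.244 CPM. Stab1 averaged 3.82 CPM under anti-IL-17A/F and 3.14 CPM under control IgG, Lyve1 0.64 and 0.53 CPM, and Cd14 1.43 and 1.27 CPM. The study also named lymphatic endothelial cells by Lyve1, and which cells made the RNA of these genes was not tested. Of the 13 tested genes 5 had fitted values above 0 and 8 below. Timd4, Cd209f, Pf4, Clec10a and Ms4a7 had 2 to 12 counts per group of 4 mice. Outside these 20 genes, Trem2, a lipid receptor of macrophages that signals through TYROBP, had 2 counts over all 8 mice. The complement receptor gene Vsig4 had 1 count in each group. Several genes of dermal macrophages were thus close to the limit of detection, while others, such as Cd163, were not. Adgre1, Csf1r and Tyrobp are genes that Langerhans cells also express, and which cells made their RNA was not tested.

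**Figure D1:**
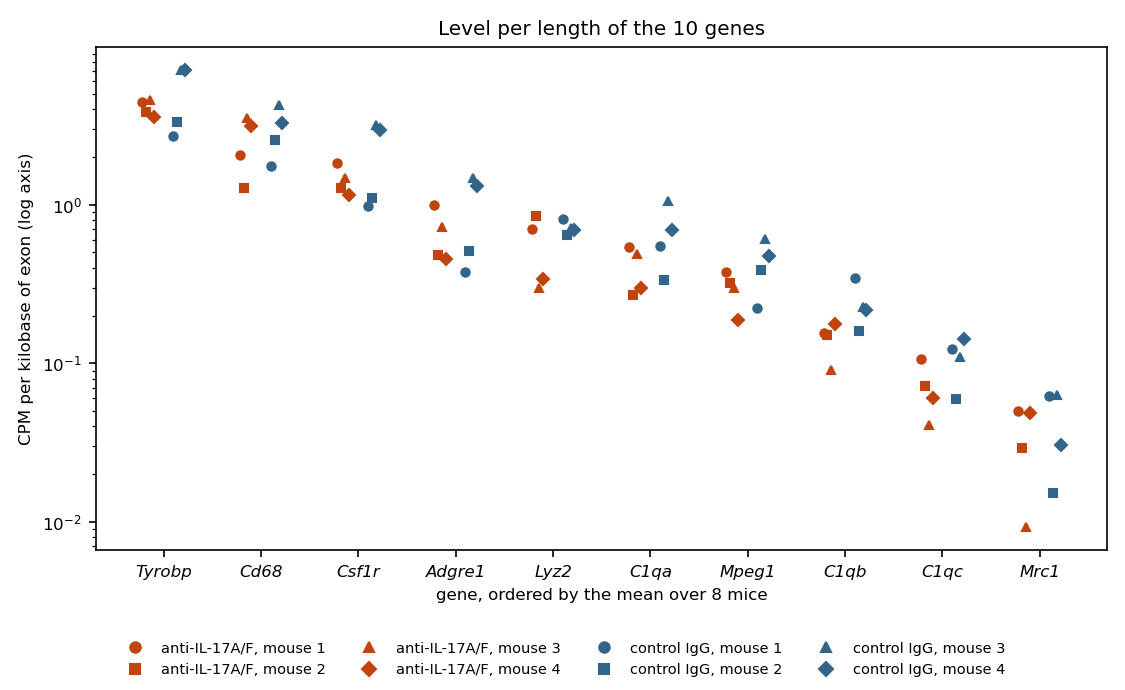
Level of each gene per kilobase of its annotated exons (CPM per kilobase, log axis) in each of 8 mice, with anti-IL-17A/F mice (orange) left of control IgG mice (blue). Tyrobp was highest, at 4.59 CPM per kilobase on average, and Mrc1 lowest, at 0.0385.

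The levels spanned a wide range. Per kilobase of exon, Tyrobp, the signalling adaptor of many myeloid and natural killer receptors, averaged 4.59 CPM over the 8 mice. It was followed by Cd68, a lysosomal membrane glycoprotein, at 2.74 CPM per kilobase, Csf1r at 1.75 and Adgre1, which encodes the macrophage surface antigen F4/80, at 0.792. This order of 4 genes held in 8 of 8 mice. The next 3 genes could not be ordered as firmly: Lyz2, the lysozyme of myeloid cells, averaged 0.632 CPM per kilobase, C1qa 0.529 and Mpeg1 0.361, and Adgre1 was above Lyz2 in only 5 of 8 mice, Lyz2 above C1qa in 6 of 8, and C1qa above Mpeg1 in 6 of 8. C1qb averaged 0.190 CPM per kilobase and lay below Mpeg1 in 7 of 8 mice. C1qc averaged 0.0893 and Mrc1 0.0385 CPM per kilobase, and both kept that place in all 8 mice. The exon length used joins all annotated transcripts of a gene, 1931 bases for C1qc against 1040 for C1qa and 1088 for C1qb, so part of the low C1qc value per length can be annotation.

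The 3 chains of C1q were rare transcripts. In all, the C1q genes had 142 counts in the 4 anti-IL-17A/F mice and 237 in the 4 control IgG mice. C1qa had 30, 12, 26 and 16 counts in anti-IL-17A/F mice 1 to 4, against 29, 18, 57 and 37 in control IgG mice 1 to 4. C1qb had 9, 7, 5 and 10 counts under anti-IL-17A/F, against 19, 9, 13 and 12 under control IgG. C1qc had 11, 6, 4 and 6 counts under anti-IL-17A/F, against 12, 6, 11 and 14 under control IgG. At such counts a single mouse carries a counting error that is large beside the value itself. The variance over mice of the same group, divided by that expected from counting alone, was 0.992 for C1qb and 1.13 for C1qc, so within a group these 2 genes varied about as much as counting does. For C1qa the ratio was 4.88.

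C1qa had 0.566, 0.279, 0.510 and 0.310 CPM under anti-IL-17A/F (mice 1 to 4), against 0.575, 0.347, 1.09 and 0.723 CPM under control IgG (mice 1 to 4). The highest mice were controls 3 and 4, and the other 2 controls lay within or just above the anti-IL-17A/F range. The mean was 0.416 ± 0.143 CPM under anti-IL-17A/F and 0.684 ± 0.312 CPM under control IgG (SD, n = 4 each), a log2 fold change of -0.70 (SE 0.38). C1qb had 0.170, 0.163, 0.0981 and 0.194 CPM under anti-IL-17A/F, against 0.376, 0.173, 0.248 and 0.235 CPM under control IgG. Here 3 control mice were above every anti-IL-17A/F mouse and control mouse 2 fell within their range. The log2 fold change of -0.72 (SE 0.33) was the largest of the 10 genes in size. C1qc had 0.207, 0.140, 0.0785 and 0.116 CPM under anti-IL-17A/F, against 0.238, 0.116, 0.210 and 0.274 CPM under control IgG. Again only control mouse 2 lay inside the anti-IL-17A/F range, and the log2 fold change was -0.61 (SE 0.38). The adjusted p in edgeR was 0.984 for each of the 3 genes.

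**Figure D2:**
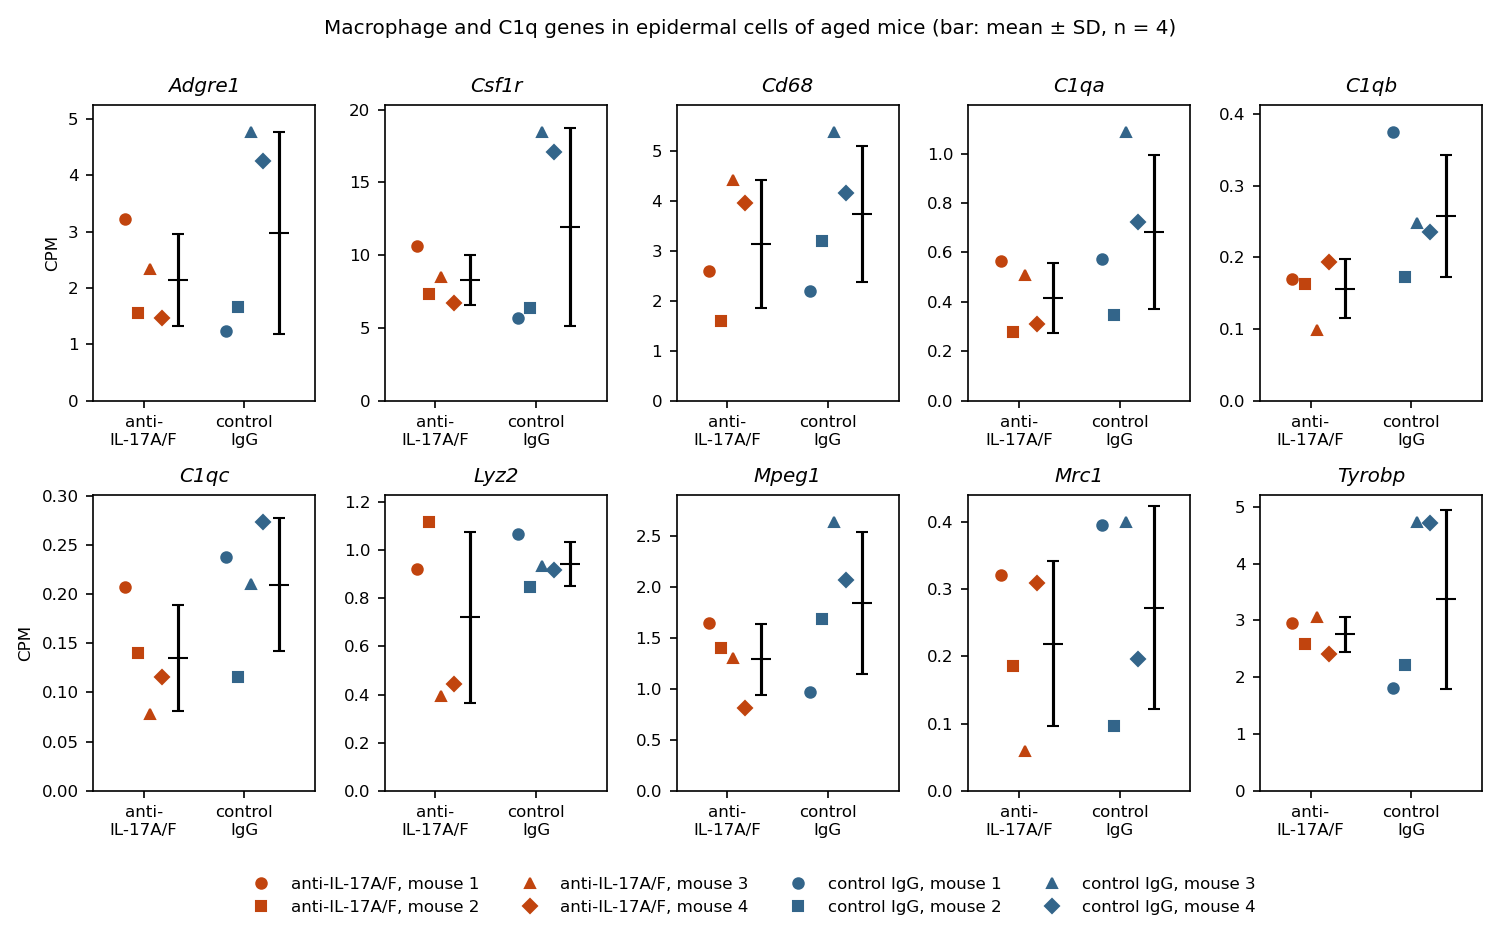
CPM of each of the 10 genes in every mouse, with anti-IL-17A/F mice left and control IgG mice right in each panel. Black bars are the mean ± SD of 4 mice, and each panel starts at 0. Control IgG mice 3 and 4 are the 2 highest for Adgre1, Csf1r, C1qa, Mpeg1 and Tyrobp, and the groups overlap in every panel.

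Csf1r (chromosome 18) was the most counted of the 10 genes, with 4120 counts over the 8 mice. It had 10.6, 7.32, 8.52 and 6.70 CPM under anti-IL-17A/F, against 5.71, 6.40, 18.5 and 17.1 CPM under control IgG. The control group thus held both the 2 highest and the 2 lowest mice, and the anti-IL-17A/F mice lay between them. The mean was 8.29 ± 1.72 CPM under anti-IL-17A/F and 11.9 ± 6.81 CPM under control IgG, a log2 fold change of -0.52 (SE 0.38, edgeR adjusted p = 0.984). The variance within groups was 109 times that of counting, so here depth was not what limited the comparison. Of the exonic bases of Csf1r, 15.1% overlap Hmgxb3 on the opposite strand. The libraries kept strand, but no source used here states whether the counting used it. The counting options that the study lists name no strand setting and let a read count for every gene it overlaps.

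Adgre1 and Tyrobp followed the same mice. Adgre1 had 3.22, 1.56, 2.34 and 1.47 CPM under anti-IL-17A/F, against 1.23, 1.66, 4.78 and 4.26 CPM under control IgG (log2 fold change -0.47, SE 0.45). Tyrobp had 2.96, 2.58, 3.06 and 2.40 CPM under anti-IL-17A/F, against 1.80, 2.22, 4.74 and 4.71 CPM under control IgG (-0.29, SE 0.31). For both genes control mice 3 and 4 were highest and control mouse 1 lowest, and the anti-IL-17A/F mice were spread less than the controls.

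Mpeg1 and Cd68 showed part of this order. Mpeg1 had 1.64, 1.40, 1.30 and 0.813 CPM under anti-IL-17A/F, against 0.971, 1.68, 2.64 and 2.07 CPM under control IgG (log2 fold change -0.52, SE 0.32). Control mice 2, 3 and 4 were above every anti-IL-17A/F mouse and control mouse 1 was below all but anti-IL-17A/F mouse 4. Cd68 had 2.60, 1.60, 4.42 and 3.95 CPM under anti-IL-17A/F, against 2.20, 3.20, 5.39 and 4.15 CPM under control IgG (-0.25, SE 0.35), the smallest difference of the 10. Anti-IL-17A/F mouse 3, the lowest mouse for C1qb, C1qc, Lyz2 and Mrc1, had the next highest Cd68 value after control mouse 3.

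Lyz2 and Mrc1 went their own way. Lyz2 had 0.924, 1.12, 0.393 and 0.445 CPM under anti-IL-17A/F, against 1.07, 0.848, 0.936 and 0.919 CPM under control IgG (log2 fold change -0.40, SE 0.33). The controls were close together, with an SD of 0.0926 CPM, while anti-IL-17A/F mice 1 and 2 lay near the controls and mice 3 and 4 below them (SD 0.356). Lyz1, the near copy of Lyz2, had 21 counts under anti-IL-17A/F and 22 under control IgG, and reads that fit both genes were left out by the study's counting. Mrc1 had 17, 8, 3 and 16 counts under anti-IL-17A/F, against 20, 5, 21 and 10 under control IgG, or 0.321, 0.186, 0.0589 and 0.310 CPM under anti-IL-17A/F against 0.396, 0.0964, 0.401 and 0.196 CPM under control IgG. No order of the groups can be seen in these values, and the log2 fold change of -0.30 had the largest SE of the 10 genes, 0.55.

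**Figure D3:**
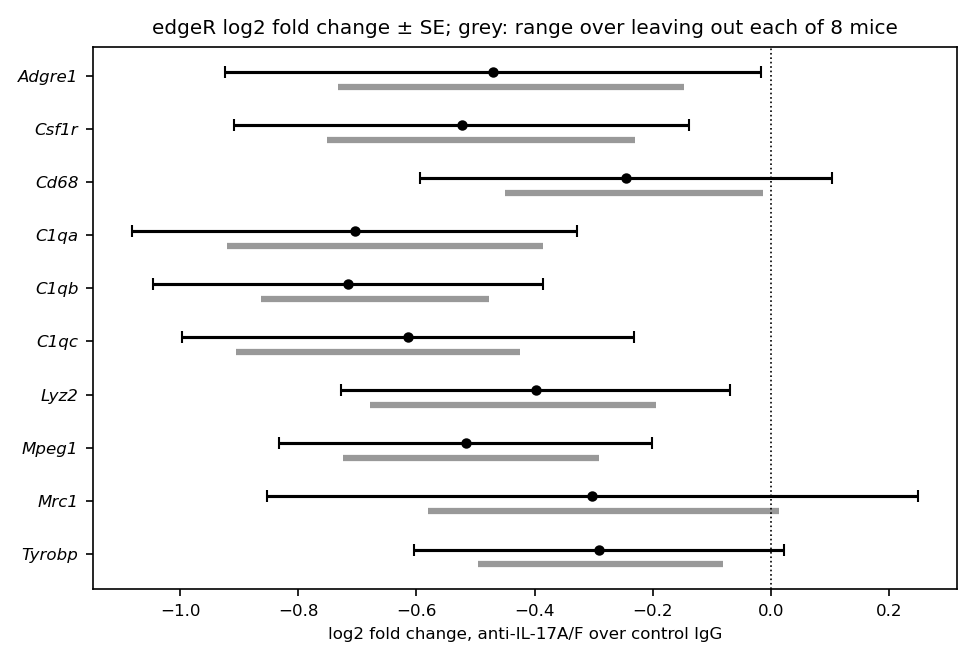
Fitted log2 fold change of anti-IL-17A/F over control IgG for each gene (black point, bar ± SE, edgeR, 4 mice per group), with the range of the value when each of the 8 mice was left out in turn in grey. The points lie between -0.72 (C1qb) and -0.25 (Cd68), and the grey range of Mrc1 reaches above 0.

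The question of this comparison was whether blocking IL-17A and IL-17F altered the level of these genes. With edgeR, 0 of 16335 genes (0.0%) had an adjusted p below 0.1, so 0 of the 10 were called, with an adjusted p of 0.984 for each. At an unadjusted p below 0.05 there were 658 genes (4.03%), 257 of them lower under anti-IL-17A/F (1.57%), and 0 of the 10 were among them. DESeq2 called 11 genes and limma-voom 0, and again 0 of the 10, of which DESeq2 gave an adjusted p for 4 only. All 10 fitted values were below 0, as were 49.9% of all genes (38.7% when scaled by library totals), and their median was -0.49 against a median of 0.0001 over all genes. These 10 values are not 10 separate observations, since several of the genes moved together from mouse to mouse. Groups without overlap, with anti-IL-17A/F lower, were found for 1.0% of all genes and for 0 of the 10.

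The size of the difference depended on single mice. Without control mouse 3 the median of the 10 genes was -0.26, with Cd68 at -0.01, Tyrobp at -0.08, Adgre1 at -0.15 and Csf1r at -0.23. Without anti-IL-17A/F mouse 1 it was -0.66. With each mouse left out in turn, the C1q values ran from -0.92 to -0.39 for C1qa, from -0.86 to -0.48 for C1qb and from -0.91 to -0.42 for C1qc. Without anti-IL-17A/F mouse 3, Mrc1 was at 0.01. In the 2 batches taken singly, C1qa gave -0.41 and -0.88, Csf1r -0.60 and -0.48, and Lyz2 -0.24 and -0.60, all without a call. C1qb, C1qc and Mrc1 had too few counts there to be tested. The batches were not equal in depth, since anti-IL-17A/F mouse 2 had 34633761 counts in batch 1 and 8182396 in batch 2.

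Markers of other leukocytes also had lower fitted values under anti-IL-17A/F, and their part in the differences was not tested. All 11 genes of the Langerhans cell list had fitted values below 0 (median -0.35). Their summed level was 251 to 354 CPM in anti-IL-17A/F mice and 216 to 588 CPM in control IgG mice. Not all of the 11 are particular to Langerhans cells. Cd74, at 116 CPM over all mice, H2-Aa and H2-Eb1 are also named by the study for a dermal macrophage cluster. All 12 genes of leukocytes at large were below 0 (median -0.37), at a sum of 230 to 254 CPM under anti-IL-17A/F and 196 to 379 CPM under control IgG, and so were all 11 T cell genes (median -0.27), at 176 to 245 CPM under anti-IL-17A/F and 179 to 277 CPM under control IgG. None was called. Of 10 neutrophil genes 2 were high enough to test, and Ly6g, Retnlg and Ngp were at 0 counts in every mouse. B cell and mast cell lists had 1 testable gene each. Fibroblast genes summed to 26.3 to 49.2 CPM under anti-IL-17A/F and 22.1 to 42.2 CPM under control IgG, with 3 higher and 5 lower of 8. All 8 endothelial genes were above 0 (median 0.35), with a sum of 7.99 to 17.4 CPM under anti-IL-17A/F and 8.66 to 10.6 CPM under control IgG. The 4 hemoglobin and heme genes that were tested had 2 above and 2 below 0, at 6.67 to 8.96 CPM under anti-IL-17A/F and 7.57 to 8.60 CPM under control IgG.

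How the 10 genes varied together over the mice was measured with Pearson's r and Spearman's rho of log2 CPM for all 45 pairs. The median r was 0.43, from -0.54 for Cd68 with Lyz2 to 0.98 for Adgre1 with Csf1r, and 37 of 45 pairs were above 0. Control mice 3 and 4 stood apart from the other 6 for several genes, so each r was also computed without the 2 mice farthest from the median. Adgre1 and Csf1r had r = 0.98 and rho = 0.93, and r was 0.97 over the 6 other mice. For Csf1r with Tyrobp r was 0.98 and rho 0.98, and r was 0.89 over the 6 other mice. For Adgre1 with Tyrobp r was 0.95 and rho 0.90, and r was 0.84 over the 6. These 3 pairs passed an exact two-sided permutation test after adjustment over the 45 pairs, with adjusted p of 0.00391, 0.00391 and 0.00781 for r and 0.0502, 0.0179 and 0.0685 for rho. They were the only pairs below 0.1 by both measures. Their r hardly changed when each group's mean was taken out first, at 0.98, 0.98 and 0.95.

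**Figure D4:**
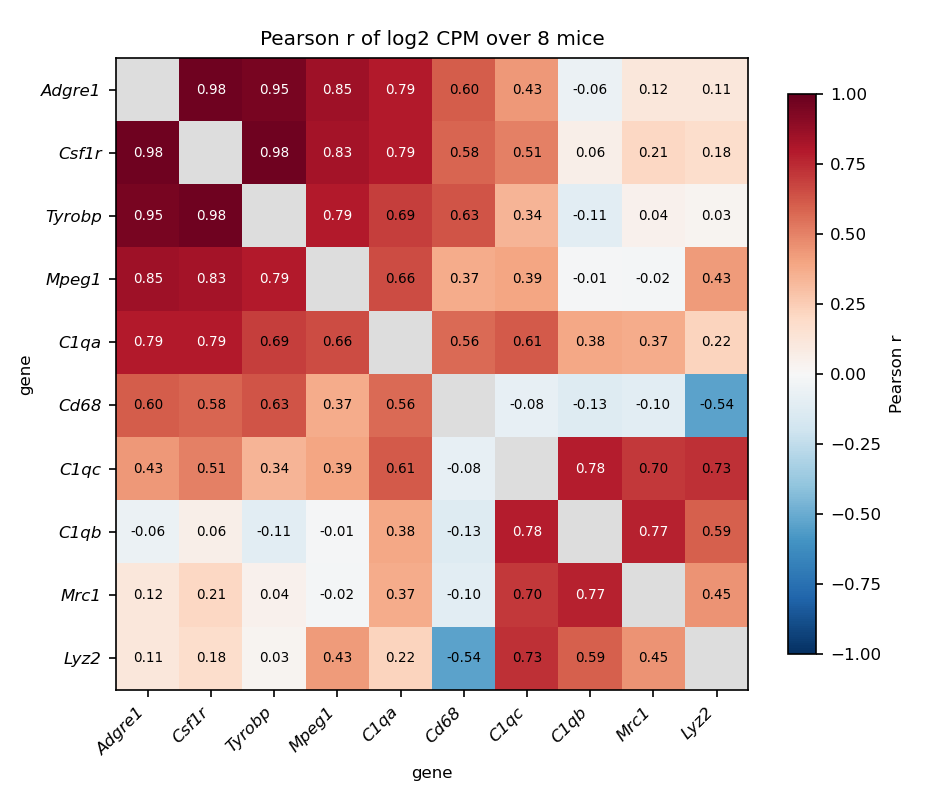
Pearson's r of log2 CPM over 8 mice for each pair of the 10 genes, coloured from -1 (blue) to 1 (red), with the gene against itself in grey. Adgre1, Csf1r and Tyrobp form a block at 0.95 to 0.98 and have values between -0.11 and 0.21 with C1qb, Mrc1 and Lyz2.

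Some other pairs fell when 2 mice were left out, and which mice were left out differed between pairs. Mpeg1 had r = 0.85 with Adgre1 and 0.83 with Csf1r, and 0.61 and 0.52 without control mice 3 and 4. Its r with Tyrobp was 0.79 over 8 mice and 0.77 without control mouse 3 and anti-IL-17A/F mouse 4. Control mouse 4 stayed in for that pair, so its value cannot be set against the other 2. C1qa had r = 0.79 with Csf1r, but 0.32 without control mice 3 and 4, so that relation rested on those 2 mice. In all 10 pairs had an adjusted exact permutation p below 0.1 by r, several of them at 0.0998 and so just under the cut, and 3 by rho. C1qb had r = 0.06 with Csf1r, -0.06 with Adgre1 and -0.11 with Tyrobp over 8 mice. Without control mice 3 and 4 its r was -0.63 with Csf1r and -0.62 with Adgre1, and without control mouse 1 and anti-IL-17A/F mouse 3 it was 0.87 with Tyrobp, so not even the sign was settled. The chains of one protein were themselves loosely tied, with r = 0.78 for C1qb and C1qc, 0.61 for C1qa and C1qc and 0.38 for C1qa and C1qb over 8 mice, and 0.62, 0.70 and 0.26 over 6. Mrc1 had r = 0.77 with C1qb and 0.70 with C1qc, and 0.43 and 0.74 over 6 mice. C1qb, C1qc and Mrc1 had 3 to 21 counts per mouse, and C1qa had 12 to 57. Counting error alone lowers correlations of the 3 rarer genes, and a low r that involves them does not show that genes varied apart.

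Because Langerhans cells share Csf1r, Adgre1 and Tyrobp, these genes were set beside Cd207, the gene of langerin, a lectin that marks Langerhans cells. This comparison, with 4 marker genes and 40 relations in all, was chosen after the data had been seen. Cd207 had 9.45, 6.86, 10.1 and 7.30 CPM under anti-IL-17A/F, against 5.31, 6.98, 21.6 and 17.7 CPM under control IgG. Control mice 3 and 4 were again highest and control mouse 1 lowest. Cd207 had r = 0.98 with Tyrobp, 0.98 with Csf1r and 0.95 with Adgre1 (rho 0.93, 0.90 and 0.90, exact permutation test, adjusted p = 0.00529 for each r). Over the 6 mice without control mice 3 and 4, r was 0.95 for Tyrobp, 0.87 for Csf1r and 0.89 for Adgre1. For Cd68 r was 0.72 over 8 mice and 0.53 over 6. The leukocyte gene Ptprc had r = 0.80 with Csf1r over 8 mice but -0.03 over these 6. With Cd207 C1qb had r = -0.02 over 8 mice but -0.87 over these 6, Lyz2 had 0.02 and -0.56, and Mrc1 had 0.09 and -0.49. C1qa had 0.78 over 8 mice and 0.20 over 6, Mpeg1 0.81 and 0.41, and C1qc 0.36 and -0.50. The values of these 6 genes thus depended on control mice 3 and 4, and those of C1qb, C1qc and Mrc1 also rest on few counts. With the T cell gene Cd3e the 10 genes had r of 0.14 to 0.47 over 8 mice. Without anti-IL-17A/F mice 1 and 3, the 2 farthest from the median of Cd3e, r was 0.80 for Adgre1, 0.76 for Csf1r, 0.81 for Cd68 and 0.82 for Tyrobp, so the relation to Cd3e also turned on single mice. With the fibroblast collagen gene Col1a2 r was -0.42 to 0.45, and no relation to Cd3e or Col1a2 had an adjusted p below 0.1.

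**Figure D5:**
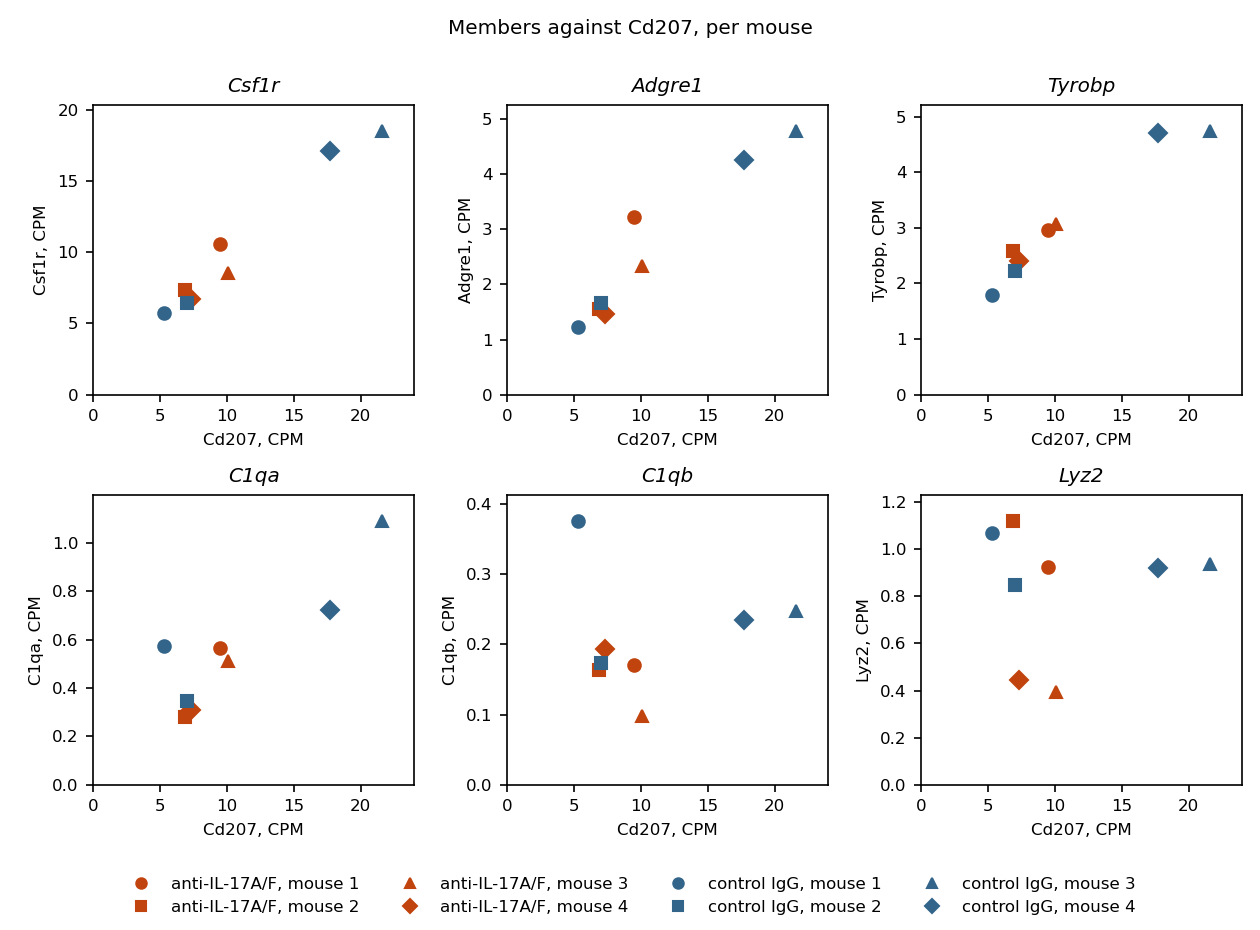
CPM of 6 of the 10 genes (vertical axes, from 0) against CPM of Cd207 (horizontal axes) in each mouse, orange for anti-IL-17A/F and blue for control IgG. Csf1r, Adgre1 and Tyrobp rise with Cd207 over the mice (r of 0.95 to 0.98), and C1qb and Lyz2 have r of -0.02 and 0.02 over all 8 mice, and -0.87 and -0.56 without control IgG mice 3 and 4.

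Of the genes outside the 10 that averaged at least 1 CPM, those most like Csf1r over the 8 mice were Hlx, a homeobox factor, H2-DMa and Cd74, which act in antigen loading of MHC class II, the gelatinase gene Mmp9 and the protease gene Ctss, at r of 0.98 to 0.99. Adgre1 and Tyrobp ranked 14th and 15th in likeness to Csf1r among 16335 genes. C1qa ranked 488th, Lyz2 6078th and C1qb 7434th. The mean of the 3 C1q genes was most like the pseudogene Gpr137b-ps, S100a11, a calcium-binding protein of keratinocytes, Castor2, Elp5 and Gm5620, at r of 0.89 to 0.94. With so many genes and 8 mice, some reach such values in any pattern, and no p is given.

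The ligands of CSF1R had higher levels per length than their receptor. Il34 averaged 193 CPM under anti-IL-17A/F and 195 CPM under control IgG, a log2 fold change of -0.01 (SE 0.10). Csf1 averaged 54.4 CPM under anti-IL-17A/F and 58.0 CPM under control IgG (-0.09, SE 0.06). Per kilobase, Il34 stood at 99.0 and Csf1 at 10.6 CPM over all mice, against 1.75 for Csf1r. Spi1, the gene of PU.1, was rare like the 10 genes, at 1.64 ± 0.314 CPM under anti-IL-17A/F and 2.42 ± 0.987 CPM under control IgG (-0.56, SE 0.29). Cebpb, a factor that keratinocytes also use, was at 58.8 ± 5.55 CPM under anti-IL-17A/F and 66.4 ± 5.06 CPM under control IgG (-0.18, SE 0.08). Of the 10 genes on this list 9 were below 0 and Runx1 was above (0.15), with a median of -0.12 and none called.

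The partners of C1q in the classical pathway had no common direction. Of 8 tested genes 4 were above and 4 below 0, with a median of 0.02. The C1 protease genes C1ra and C1s1 were at -0.04 (SE 0.33) and -0.01 (SE 0.21). C4b, a substrate of the C1 complex, averaged 2.16 ± 0.643 CPM under anti-IL-17A/F and 1.74 ± 0.455 CPM under control IgG (0.31, SE 0.27), and Serping1, the gene of the C1 inhibitor, averaged 2.90 ± 1.31 CPM under anti-IL-17A/F and 2.36 ± 0.312 CPM under control IgG (0.29, SE 0.30). C4a and C4b are near copies, and the study's counting left out reads that map to several places, so reads that fit both may be missing. Of 12 regulators and receptors of complement 8 were below 0 and 4 above (median -0.04). The integrin genes Itgax and Itgam, which form complement receptors, were at -0.38 (SE 0.29) and -0.13 (SE 0.11). Reads for C3ar1 and C5ar1, the anaphylatoxin receptors of myeloid cells, numbered 2 and 3 in the anti-IL-17A/F mice, against 12 and 7 in the control IgG mice.

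Among partners of TYROBP 8 of 10 tested genes were below 0 (median -0.24). Cd300lb, an activating receptor, had 28 counts under anti-IL-17A/F and 61 under control IgG (log2 fold change -1.05, SE 0.48), and Hcst, an adaptor related to TYROBP, was at -0.50 (SE 0.29). Fcer1g, the shared chain of Fc receptors, averaged 8.20 CPM under anti-IL-17A/F and 9.42 CPM under control IgG, and stood at 10.1 CPM per kilobase over all mice against 4.59 for Tyrobp. Of the Fc gamma receptors Fcgr2b was at -0.24 (SE 0.32) and Fcgr3 at 0.23 (SE 0.34), and Fcgr1, a macrophage gene, had 9 counts under anti-IL-17A/F and 7 under control IgG. Phagosome and lysosome genes were below 0 in 10 of 13 (median -0.08), with the protease gene Ctsc at -0.11 (SE 0.05) and Ncf4, a subunit of the phagocyte oxidase, at -0.42 (SE 0.29). None of these genes was called.

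Resident macrophage genes outside the 10 were mixed, with 5 above and 8 below 0 of 13 and a median of -0.05. Mertk, a receptor for dying cells, was at 28.5 ± 5.38 CPM under anti-IL-17A/F against 22.4 ± 2.30 CPM under control IgG (0.34, SE 0.14, not called), and Folr2 was at -0.56 (SE 0.32). Of 9 monocyte genes 4 were tested, 2 above and 2 below 0 (median 0.13), with the integrin gene Itga4 at 0.63 (SE 0.30) and the chemokine receptor gene Ccr2 at -0.44 (SE 0.41). Fn1, the fibronectin gene, which fibroblasts and keratinocytes also express, was at 40.9 ± 8.23 CPM under anti-IL-17A/F and 23.5 ± 5.64 CPM under control IgG (0.80, SE 0.18, edgeR adjusted p = 0.984). Cx3cr1, the fractalkine receptor, was at 6.28 ± 0.307 CPM under anti-IL-17A/F and 8.10 ± 1.49 CPM under control IgG (-0.37, SE 0.14). Ly6c2, a gene of classical monocytes, had 13 counts under anti-IL-17A/F and 46 under control IgG and was too rare to be tested. Inflammatory myeloid products were below 0 in 6 of 7 (median -0.21), among them Il1b at -0.46 (SE 0.39) and Tnf at -0.54 (SE 0.46), while Arg1 was at 0.50 (SE 0.36). Dendritic cell genes were below 0 in 5 of 7 (median -0.49), with Ccl22 at -0.79 (SE 0.45). None of these genes was called.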

How the data were processed

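RNA was measured in epidermal cell suspensions of 8 aged mice, 4 per group. Per the labels and the study's methods, the authors made stranded poly(A) libraries, aligned reads with STAR 2.5.2b to mm10 and counted them per gene with featureCounts. The deposited values are raw counts, not normalized, for 27179 Entrez identifiers, 25275 of which (93.0%) had a symbol in RefSeq (GRCm38.p6). Each library had 2 runs, which were summed. The chi-square between the runs of a mouse averaged 0.342 to 1.79 per mouse for the 10 genes, near the 1 that counting gives. Gene positions and exon lengths came from GENCODE M21.

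Differences between the groups were tested in edgeR 4.0.16 under R 4.3.3 (quasi-likelihood, TMM) after filterByExpr (minimum count 10, minimum total 15), which kept 16335 of 21658 genes with any count. P-values were adjusted by Benjamini-Hochberg over all of them and called below 0.1, the study's level. The study also used an experimental batch term, which no source used here assigns to mice. Whether the batches of the labels are that term is not stated. The SE is the fold change divided by the root of the F value. Fits were tested on simulated data. DESeq2 1.42.0 and limma-voom (limma 3.58.1) were alternatives. Correlations used log2 CPM (prior count 2) and exact permutation of the 40320 pairings of 8 mice, two-sided.

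The 10 genes and all lists were chosen with earlier results of these data known. Named genes were the 10, up to 4 genes per other list with the smallest p, and the 5 most like Csf1r or the C1q mean, and other genes were named after their values were seen. P-values of edgeR set the difference between groups against the spread of these mice within groups, and those of correlations come from re-pairing the mice.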

Additional observations from a re-analysis of the deposited data

How the results depend on the processing

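Over 17 alternative fits, 0 of the 10 genes were called, and the median of their log2 fold changes lay between -0.66 and -0.26 (main value -0.49). Of 161 values of single genes 160 were below 0. The exception was Mrc1 without anti-IL-17A/F mouse 3, at 0.013 against -0.30 with all mice, and its lowest value with a mouse left out was -0.58. The number of genes called among all genes was 0 in edgeR and 0 with limma-voom on summed runs, but 11 with DESeq2 (8 at 0.05) and 17 with limma-voom on the 16 runs with a batch term and the mouse as a random block (1 at 0.05). DESeq2 gave no adjusted p for 6 of the 10 genes, C1qa, C1qb, C1qc, Lyz2, Mpeg1 and Mrc1. Library totals in place of TMM moved the median of all genes by 0.03 and the share below 0 to 38.7%. With single batches or 16 separate runs C1qb, C1qc and Mrc1 fell under the filter. Of 334 list medians under alternatives added after the data had been seen, 9 moved by more than 1 SD between mice, 6 of them in the neutrophil list.

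No pairing by mouse number could be seen: the correlation of deviations between same-numbered mice was -0.27, 0.25, 0.19 and -0.14. Between mice of different numbers it ran from -0.31 to 0.30. So few values cannot show whether same-numbered mice were handled together. With the number as a replicate block edgeR called 0 genes and the median of the 10 was -0.42. The median r of 45 pairs was 0.38 for deviations from group means, 0.43 with a prior count of 0.5, 0.44 with library totals, and 0.36 to 0.55 with a mouse left out. Depth limits C1qb, C1qc and Mrc1, which had 70 to 100 counts in all.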
